A study of Mus musculus with 18 samples.

Results

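The 9 genes described here encode proteins of 4 routes of regulated cell death: apoptosis (Bax, Bcl2l1 and Casp8), necroptosis (Ripk1, Ripk3 and Mlkl), pyroptosis (Gsdmd) and ferroptosis (Acsl4 and Gpx4). They were picked by name, and all 9 were found by Ensembl identifier among the 37991 gene identifiers of the count tables and passed the low-count filter that left 16824 genes for testing. The libraries came from frozen whole kidney of male Balb/c mice in 6 groups of 3. One group was untreated, and the 5 others were taken 1, 2, 3, 7 and 14 days after 1 intraperitoneal injection of 250 mg/kg folic acid in 0.3 M sodium bicarbonate, given at 25 to 29 g body weight. High-dose folic acid injures the renal tubule and is used as a model of acute kidney injury with later fibrosis. No group received the bicarbonate alone, so effects of vehicle and of folic acid cannot be told apart. Nothing in the labels says whether the 3 libraries of a group are 3 animals, and the p-values therefore reflect only how these samples vary, which may be technical.

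Apoptosis is run by caspases. Bax opens pores in the outer mitochondrial membrane, Bcl-xL (from Bcl2l1) keeps such pores from forming, and caspase 8 starts the cascade below death receptors. When caspase 8 is not active, RIPK1 and RIPK3 can instead phosphorylate MLKL, which then permeabilizes the plasma membrane in necroptosis. Pyroptosis uses pores of gasdermin D, cut by inflammatory caspases, and ferroptosis is death by iron-dependent peroxidation of membrane lipids. ACSL4 loads polyunsaturated fatty acids into those lipids, and the selenoenzyme GPX4 reduces their peroxides. These proteins are largely controlled by cleavage, phosphorylation and oligomerization, which mRNA levels do not record, and the renal tubule is a tissue in which necroptosis and ferroptosis have been much studied.

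Library depth was uneven. The libraries held 8.68 to 54.6 M reads in genes (median 24.4), of which 59 to 75.6% came from 37 mitochondrial genes, and day 2 replicate 2 was the shallowest. Levels are CPM (counts scaled to library size) with TMM scaling, and a call means a Benjamini-Hochberg adjusted p under 0.05 over all tested genes in edgeR's quasi-likelihood test. The markers of the labelled tissue were present. The summed level of 11 proximal tubule markers was 10600 to 11500 CPM in untreated kidney and 1970 to 2050 CPM at day 2, and none of the 11 was at 0. The sum of 7 injured-tubule markers went from 133 to 182 CPM in untreated kidney to 14900 to 19200 CPM at day 1. The sum of 10 macrophage markers was 23.7 to 49.0 CPM in untreated kidney, 50.2 to 60.9 CPM at day 2 and 212 to 350 CPM at day 7. Scaling by library totals alone moved the median log2 fold change of all genes by 0.143, 0.254, 0.577, 0.673 and 0.317 at days 1, 2, 3, 7 and 14, so fold changes here are relative to the bulk of genes in each library. In whole tissue, fewer cells of a type and less RNA per cell cannot be told apart.

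Acsl4 and Ripk3 were called higher than in untreated kidney at each of days 1, 2, 3 and 7. Bcl2l1 was called higher at days 1 and 2, and Mlkl at day 1. No call was made at any day for Bax, Casp8, Ripk1, Gsdmd or Gpx4, and no member was called lower. Across the 6 groups at once, 3 of the 9 were called, Acsl4 (adjusted p = 9.06e-05), Bcl2l1 (adjusted p = 0.00386) and Ripk3 (adjusted p = 0.0226), where 19.7% of all tested genes were. Against untreated kidney, 4 of the 9 were called higher at day 1, where 5.09% of all tested genes were called higher and 10.7% in either direction. At day 2, 3 of 9 were called higher, against 7.19% of all tested genes (13.2% in either direction). At day 3 it was 2 of 9, against 4.18% (7.61% in either direction), and at day 7 again 2 of 9, against 3.87% (7.72%). At day 14 none of the 9 was called by edgeR, and 1.24% of all tested genes were called higher (1.55% in either direction). At that day 2 of the 9 had an unadjusted p under 0.05, as did 2629 of all 16824 tested genes. The median log2 fold change of the 9 was 0.65, 0.80, 0.35, 0.56 and 0.25 at days 1, 2, 3, 7 and 14, where that of all tested genes lay between 0.034 and 0.066. The 5 comparisons share the 3 untreated libraries, so their results are not independent of each other.

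**Figure D1:**
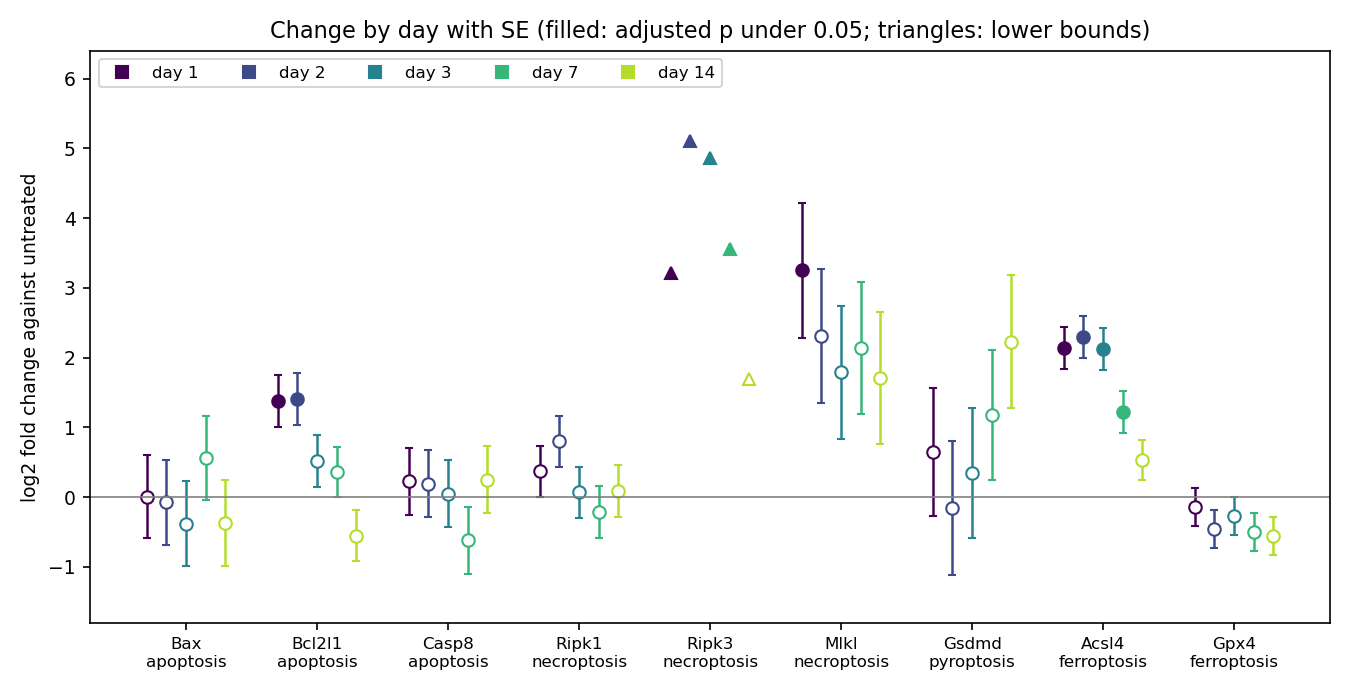
Log2 fold change against untreated kidney (y axis) of each of the 9 genes (x axis) at days 1, 2, 3, 7 and 14, with the standard error as bars and filled symbols where the adjusted p was under 0.05. Ripk3, which had no read in untreated kidney, is drawn as triangles at its mean over a floor of 3 reads in the untreated group, without an error. The spread of its day libraries is not in these values, which the figure title calls lower bounds. The filled symbols belong to Bcl2l1, Ripk3, Mlkl and Acsl4, all above 0.

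The 4 genes that were called higher at day 1 are from 3 of the routes, and their promoters are shown because of those calls. Each window runs from 250 bases before to 50 bases after a transcription start in RefSeq (build GRCm38.p6), 5′ to 3′ on the gene's strand, with the GC box (GGGCGG on either strand, the core of SP1 sites) in capitals. For Bcl2l1, which has 3 windows in that table, the outermost start is shown. Positions are those of RefSeq's build and not of the older build to which the reads were aligned.
Acsl4, chrX:142390486-142390785, minus strand: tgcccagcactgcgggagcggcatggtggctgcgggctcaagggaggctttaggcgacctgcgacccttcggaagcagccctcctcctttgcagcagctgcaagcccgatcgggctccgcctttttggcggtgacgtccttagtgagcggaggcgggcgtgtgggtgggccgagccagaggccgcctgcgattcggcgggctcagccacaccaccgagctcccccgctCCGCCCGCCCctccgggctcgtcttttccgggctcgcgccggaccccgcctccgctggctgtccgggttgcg
Ripk3, chr14:55788808-55789107, minus strand: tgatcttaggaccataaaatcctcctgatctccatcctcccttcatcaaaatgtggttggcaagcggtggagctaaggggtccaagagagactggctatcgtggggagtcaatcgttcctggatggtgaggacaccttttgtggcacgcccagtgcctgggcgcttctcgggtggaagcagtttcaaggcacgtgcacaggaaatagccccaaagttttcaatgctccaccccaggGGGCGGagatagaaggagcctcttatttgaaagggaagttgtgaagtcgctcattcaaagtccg
Mlkl, chr8:111338156-111338455, minus strand: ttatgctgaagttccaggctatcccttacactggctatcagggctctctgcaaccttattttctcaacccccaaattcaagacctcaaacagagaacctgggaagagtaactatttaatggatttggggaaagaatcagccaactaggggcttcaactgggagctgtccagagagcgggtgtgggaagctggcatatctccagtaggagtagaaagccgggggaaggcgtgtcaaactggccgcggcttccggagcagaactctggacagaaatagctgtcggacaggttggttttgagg
Bcl2l1, chr2:152831679-152831978, minus strand: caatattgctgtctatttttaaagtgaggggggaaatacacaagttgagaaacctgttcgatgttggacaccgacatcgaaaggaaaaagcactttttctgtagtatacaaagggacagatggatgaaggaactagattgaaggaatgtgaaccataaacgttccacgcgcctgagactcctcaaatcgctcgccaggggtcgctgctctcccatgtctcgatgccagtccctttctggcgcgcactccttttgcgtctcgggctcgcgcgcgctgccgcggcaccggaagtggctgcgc
The windows are unlike one another. The Acsl4 window holds 71.7% G and C, 33 CG pairs and 2 GC boxes that overlap. The Ripk3 window holds 52.7% G and C, 10 CG pairs, 1 GC box and 1 E-box (CACGTG), while the Mlkl window (51.0% G and C, 7 CG pairs) and this Bcl2l1 window (52.3%, 22 CG pairs) hold neither motif. Over all 32851 promoters of the table the median was 52.7% G and C with 7 CG pairs, 35.7% held a GC box and 7.15% an E-box.

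Searching both strands of the same 4 windows for TGANTCA (AP-1), TGACNNNGC (the antioxidant response core), an interferon response core, an NF-kappaB site and a p53 half-site found none of them. These stand in 7.81%, 12.4%, 3.44%, 4.51% and 8.36% of all promoters. Of the other windows of the 9 genes (14 in all, for 8 genes, with none matched for Gsdmd), the Bax window held 3 GC boxes, 2 E-boxes and 1 p53 half-site. The 2 Ripk1 windows held 3 and 4 GC boxes, the Gpx4 windows up to 2, and the Casp8 window none of the 7 motifs. One Ripk1 window also held 1 interferon response core, and of the 2 other Bcl2l1 windows 1 held an antioxidant response core and 1 an NF-kappaB site. A match or its absence describes these letters only.

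Bax, the pore-forming protein of the apoptotic mitochondrion, was a low and unsteady transcript. It stood at 5.98, 3.69 and 7.08 CPM in the untreated libraries, 4.5, 5.51 and 6.78 CPM at day 1, and 5.01, 1.52 and 8.99 CPM at day 2. It stood at 3.08, 3.71 and 6.03 CPM at day 3, 4.80, 2.78 and 17.0 CPM at day 7, and 5.03, 5.15 and 2.77 CPM at day 14. Every day overlapped the untreated group, and the highest value came from a single library, day 7 replicate 3. The fitted log2 fold change lay between -0.38 at day 3 and 0.56 at day 7, and the intervals (2 SE) over the 5 days ran from -1.59 to 1.76. Adjusted p lay between 0.667 and 0.995, and changes within those intervals were not detectable. Of the Bax exon sequence, 192 of 1576 bases are shared with the annotated gene Gm45808 on the same strand.

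Bcl2l1, which encodes the survival factor Bcl-xL, was higher on the first days. Untreated libraries held 18.6, 10.4 and 13.3 CPM, day 1 libraries 42.9, 34.9 and 31.8 CPM, and day 2 libraries 26.3, 23.8 and 61.6 CPM. All 6 libraries of days 1 and 2 lay above all 3 untreated ones. The later values were 24.1, 16.1 and 20.4 CPM at day 3, 13.4, 13.9 and 26.7 CPM at day 7, and 9.76, 9.61 and 9.46 CPM at day 14. By day 3 the ranges overlapped, and at day 14 all 3 libraries lay just below the lowest untreated one. Bcl2l1 rose 2.59-fold at day 1 (log2 1.38 ± 0.37 SE, adjusted p = 0.0218) and 2.65-fold at day 2 (1.41 ± 0.37, adjusted p = 0.0163). At days 3, 7 and 14 the log2 fold changes were 0.52, 0.36 and -0.55, with adjusted p of 0.446, 0.643 and 0.512. The day 2 value leaned on replicate 3: without it the log2 fold change was 0.83 with an adjusted p of 0.138. The day 2 call was also lost without untreated replicate 2 (0.0870) or 3 (0.0668), and the day 1 call without untreated replicate 2 (0.107), untreated replicate 3 (0.0800) or day 1 replicate 1 (0.0835), all adjusted p.

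Casp8, the initiator caspase that death receptors recruit and that restrains necroptosis, varied more within groups than between them. The untreated libraries held 51.8, 17.5 and 15.3 CPM and the day 14 libraries 17.1, 65.0 and 18.3 CPM, so that 1 library in each of these groups stood far above the others. Day 1 values were 37.1, 34.8 and 27.2 CPM and day 2 values 26.3, 44.1 and 26.2 CPM. Day 3 values were 33.5, 21.8 and 32.3 CPM and day 7 values 22.3, 15.6 and 17.2 CPM. All 5 days overlapped untreated kidney. The fitted log2 fold changes ran from -0.62 at day 7 to 0.25 at day 14, with adjusted p between 0.513 and 0.970, and leaving out untreated replicate 1 moved the day 1 value from 0.23 to 1.00.

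**Figure D2:**
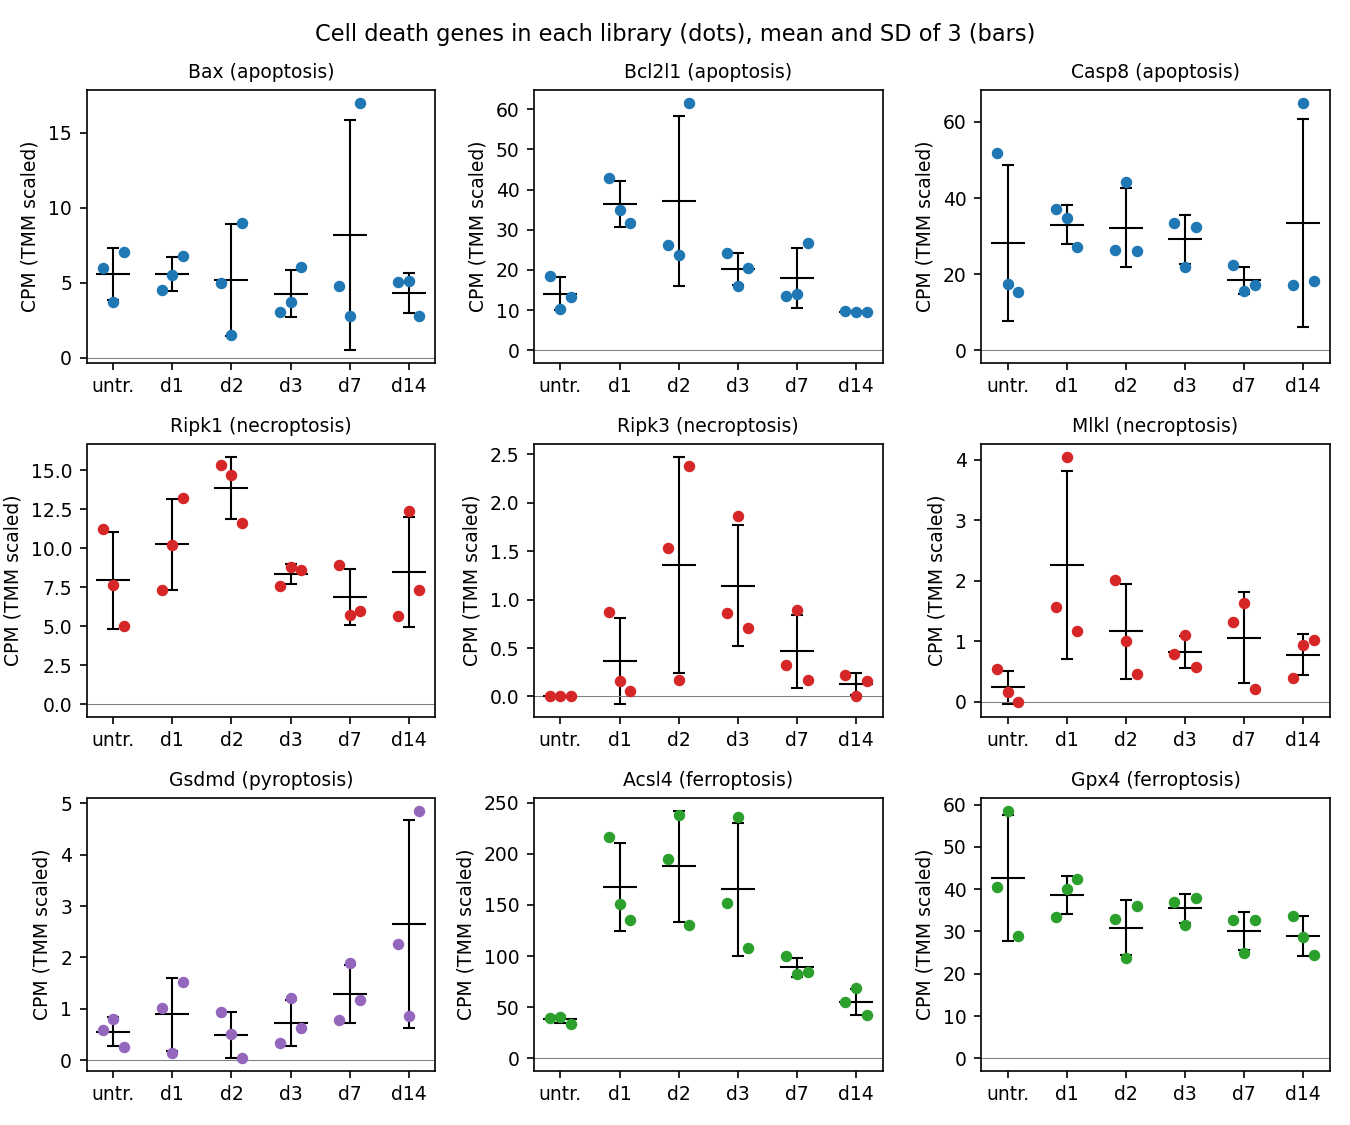
Level of each of the 9 genes in CPM with TMM scaling (y axis, a separate scale per panel) in the 3 libraries of each group (points), with the group mean and SD as bars, over untreated kidney and days 1, 2, 3, 7 and 14 (x axis). All 15 treated libraries of Acsl4 lie above its 3 untreated libraries, whereas the libraries of Bax, Casp8 and Gpx4 overlap the untreated ones at every day.

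Ripk1, the kinase at the branch between survival, apoptosis and necroptosis signals, was highest at day 2. The untreated libraries held 11.2, 7.63 and 5.01 CPM and the day 1 libraries 7.35, 10.2 and 13.2 CPM. At day 2 they held 15.3, 14.7 and 11.6 CPM, all above the untreated range, although the lowest was close to the highest untreated value. The day 3, 7 and 14 libraries lay between 5.64 and 12.4 CPM and overlapped it. The day 2 log2 fold change of 0.80 ± 0.37 SE had an unadjusted p of 0.0462 and an adjusted p of 0.176, so it was not called, and the adjusted p at the other days was 0.612 or more. Untreated replicate 1 and day 14 replicate 2 were the highest libraries of their groups for Ripk1 as for Casp8. A processed pseudogene, Gm17084, shares 511 of the 8344 exon bases of Ripk1 on the same strand and held up to 1046 reads in a library, and Serpinb6a shares 241 on the other strand, so the Ripk1 counts are uncertain to that extent.

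Ripk3, the kinase that phosphorylates MLKL, had no read in any of the 3 untreated libraries. It had 20, 7 and 3 reads at day 1, 75, 1 and 62 reads at day 2, and 26, 49 and 27 reads at day 3. It had 10, 25 and 5 reads at day 7 and 5, 0 and 4 reads at day 14. Reads were thus present in all 12 libraries of days 1 to 7, with a single read in the shallow day 2 replicate 2. Day 1 had a mean level of 0.364 ± 0.445 CPM (SD, n = 3), day 2 of 1.36 ± 1.12, day 3 of 1.14 ± 0.623, day 7 of 0.464 ± 0.377 and day 14 of 0.127 ± 0.113. Day 2 and day 3 were the highest, with overlapping libraries (adjusted p between them = 0.924), and no pair of consecutive days was called apart.

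Set against a floor of 3 reads over the untreated group (0.0393 CPM, counting error only), the mean of Ripk3 was 9.27 times higher at day 1 (adjusted p = 0.0379). The mean was 34.6 times the floor at day 2 (adjusted p = 0.00636), 29.1 times at day 3 (adjusted p = 0.0133) and 11.8 times at day 7 (adjusted p = 0.0346), while day 14 was not called (adjusted p = 0.223). The adjusted p are those of edgeR's fitted changes from an untreated group without reads and do not measure these ratios. The ratios leave out the spread of the day libraries, of which the lowest held 0.0597 CPM at day 1 and 0.169 CPM at day 2. Ripk3 passed the low-count filter only through treated libraries. With only the groups compared, it did not pass at days 1, 2, 7 and 14. The day 2 call was kept without each library in turn, with an adjusted p of 0.0354 at most. The day 3 call was lost without untreated replicate 2 (0.0644). The day 1 call was lost without any 1 of the untreated libraries (0.0946, 0.139 and 0.0889 for replicates 1, 2 and 3) or without day 1 replicate 1 (0.152), and the day 7 call likewise (0.0929, 0.132 and 0.0817) or without day 7 replicate 1 (0.0634) or 2 (0.0971). Under limma-voom the day 1 call was lost too, with a log2 fold change of 3.07 ± 1.54 SE (adjusted p = 0.241) against 6.37 in edgeR. The day 7 call was also lost there (4.17 ± 1.51 SE, adjusted p = 0.107). The call across the 6 groups was lost without untreated replicate 1 (0.0506) or 2 (0.0647). Leukocytes carry Ripk3 as well, and the macrophage marker sum was 56.6 to 93.3 CPM at day 1, 50.2 to 60.9 CPM at day 2 and 126 to 169 CPM at day 3. The part of these cells in the Ripk3 values was not tested.

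Mlkl, which executes necroptosis at the membrane, had 10, 7 and 0 reads in the untreated libraries and 36, 180 and 59 reads at day 1. Its levels were 0.544, 0.166 and 0 CPM untreated and 1.57, 4.05 and 1.17 CPM at day 1, so the groups did not overlap. Day 2 libraries held 2.02, 1.01 and 0.461 CPM and day 3 libraries 0.796, 1.10 and 0.577 CPM. Only at day 3 of the later days did all libraries lie above the untreated range, since the lowest of day 2, of day 7 (1.32, 1.64 and 0.208 CPM) and of day 14 (0.390, 0.933 and 1.02 CPM) fell within it. Mlkl rose 9.49-fold at day 1 (log2 3.25 ± 0.97 SE, adjusted p = 0.0378), with a wide interval of 1.30 to 5.19 on the log2 scale. The later log2 fold changes were 2.31, 1.79, 2.14 and 1.71 at days 2, 3, 7 and 14, with adjusted p of 0.124, 0.280, 0.192 and 0.409. Across the 6 groups Mlkl was not called (adjusted p = 0.178). Day 1 replicate 2 carried much of the rise: without it the log2 fold change was 2.52 with an adjusted p of 0.162. The call was lost too without untreated replicate 2 (0.142), untreated replicate 3 (0.112) or day 1 replicate 1 (0.0567).

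Gsdmd, the pore former of pyroptosis, was near the limit of detection. It had 11, 34 and 4 reads in the untreated libraries, 23, 6 and 77 at day 1, 46, 3 and 1 at day 2, and 10, 32 and 24 at day 3. It had 24, 53 and 34 reads at day 7 and 52, 21 and 119 reads at day 14. Levels at day 14 were 2.26, 0.852 and 4.85 CPM, above the untreated 0.598, 0.808 and 0.251 CPM, though by a narrow margin in replicate 2. The day 14 log2 fold change of 2.23 ± 0.95 SE had an unadjusted p of 0.0300 and an adjusted p of 0.254 and was not called, and the other days overlapped untreated kidney. Day 14 replicate 3, the highest library, also had the highest macrophage marker sum of its group (353 CPM, against 163 as the lowest) and the lowest proximal tubule sum (2680 CPM, against 7790 as the highest). The part of that library's cell content in the Gsdmd value was not tested.

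Acsl4, the acyl-CoA synthetase that supplies the lipids peroxidized in ferroptosis, showed the clearest change of the 9. Untreated libraries held 39.6, 40.7 and 33.9 CPM. Day 1 libraries held 216, 151 and 135 CPM, day 2 libraries 195, 238 and 130 CPM, and day 3 libraries 152, 236 and 108 CPM. The level was then lower again, at 99.8, 82.1 and 84.8 CPM at day 7 and 54.9, 68.4 and 42.2 CPM at day 14. At day 14 the lowest library (42.2 CPM) lay just above the highest untreated one (40.7 CPM). Acsl4 rose 4.40-fold at day 1 (log2 2.14 ± 0.30 SE, adjusted p = 0.000136), 4.91-fold at day 2 (2.30 ± 0.30, adjusted p = 7.16e-05), 4.35-fold at day 3 (2.12 ± 0.30, adjusted p = 0.00033) and 2.33-fold at day 7 (1.22 ± 0.30, adjusted p = 0.0151). At day 14 the log2 fold change was 0.53 ± 0.29 with an adjusted p of 0.401. The calls of days 1 to 3 were kept without each library in turn. That of day 7 was lost without untreated replicate 1 (0.0518), untreated replicate 3 (0.0677) or day 7 replicate 1 (0.0648), with log2 fold changes of 1.13 to 1.25. The order of the group means was day 2, day 1, day 3, day 7, day 14 and untreated, and the first 3 overlapped one another. From day 3 to day 7 the log2 change of -0.90 had an unadjusted p of 0.00634 and an adjusted p of 0.286, and between days 7 and 14 it was -0.69 (adjusted p = 0.456).

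Gpx4, the enzyme that reduces phospholipid peroxides, was not called at any day. Untreated libraries held 40.6, 58.5 and 28.8 CPM, day 1 libraries 33.5, 40.0 and 42.3 CPM, and day 2 libraries 32.9, 23.7 and 36.1 CPM. Day 3 libraries held 36.9, 31.5 and 37.9 CPM, day 7 libraries 32.7, 25.0 and 32.7 CPM, and day 14 libraries 33.7, 28.7 and 24.4 CPM. The untreated group was the widest and overlapped each day. Its log2 fold changes were -0.14, -0.46, -0.27, -0.50 and -0.56 at days 1, 2, 3, 7 and 14, each ± 0.27 SE, with adjusted p between 0.290 and 0.809. The intervals (2 SE) reached down to -1.10 and up to 0.40 over the 5 days. Scaled by library totals alone, the values at days 3 and 7 changed sign to 0.27 and 0.13, so no direction is given for Gpx4. Reads that map to more than 1 place were tallied apart from genes (18.4 to 28.5% of a library), and Gpx4 has processed pseudogenes, so its counts are uncertain.

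Per kilobase of exon, which allows levels of different genes to be set side by side, Gpx4 was the highest of the 9 in untreated kidney at 24.7 ± 8.66 CPM per kb (SD, n = 3). Casp8 followed at 9.74 ± 7.07, Acsl4 at 7.05 ± 0.669, Bax at 3.54 ± 1.10 and Bcl2l1 at 3.07 ± 0.907. The libraries of Gpx4 and Casp8 overlapped, as did those of Casp8 and Acsl4 and of Bax and Bcl2l1, whereas those of Acsl4 all lay above those of Bax. Ripk1 was lower at 0.953 ± 0.372, Gsdmd at 0.232 ± 0.119, Mlkl at 0.103 ± 0.121 and Ripk3 at 0. At day 2 Acsl4 had the highest level, at 34.7 ± 10.1 CPM per kb, above Gpx4 at 17.9 ± 3.74. The necroptosis pair stayed low on this scale even at its highest, with Mlkl at 0.984 ± 0.676 at day 1 and Ripk3 at 0.593 ± 0.487 at day 2.

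Ratios of reads within a library do not depend on the scaling between libraries and are given without a test. The log2 ratio of Acsl4 to Gpx4 was -0.04, -0.52 and 0.24 in the untreated libraries, 2.69, 1.92 and 1.67 at day 1, and 2.56, 3.32 and 1.84 at day 2. It was 2.05, 2.91 and 1.52 at day 3, 1.61, 1.71 and 1.37 at day 7, and 0.70, 1.25 and 0.79 at day 14. All 15 treated libraries thus had more Acsl4 reads relative to Gpx4 reads than any untreated library, including day 14. The ratio of Bcl2l1 to Bax had a log2 mean of 1.34 ± 0.39 (SD, n = 3) untreated, 2.71 ± 0.51 at day 1, 3.02 ± 0.78 at day 2 and 2.27 ± 0.62 at day 3, with no overlap with untreated kidney. At days 7 and 14 it was 1.48 ± 0.83 and 1.2 ± 0.48 and overlapped. The ratio of Mlkl to Casp8, the effector of necroptosis against its brake, had a log2 mean of -7.35 ± 1.37 untreated and -4.05 ± 0.83 at day 1, and between -5.20 and -4.52 later. It did not overlap untreated kidney at any day, but its untreated mean rests on 17 Mlkl reads and a pseudocount of 0.5 in a library that had none.

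**Figure D3:**
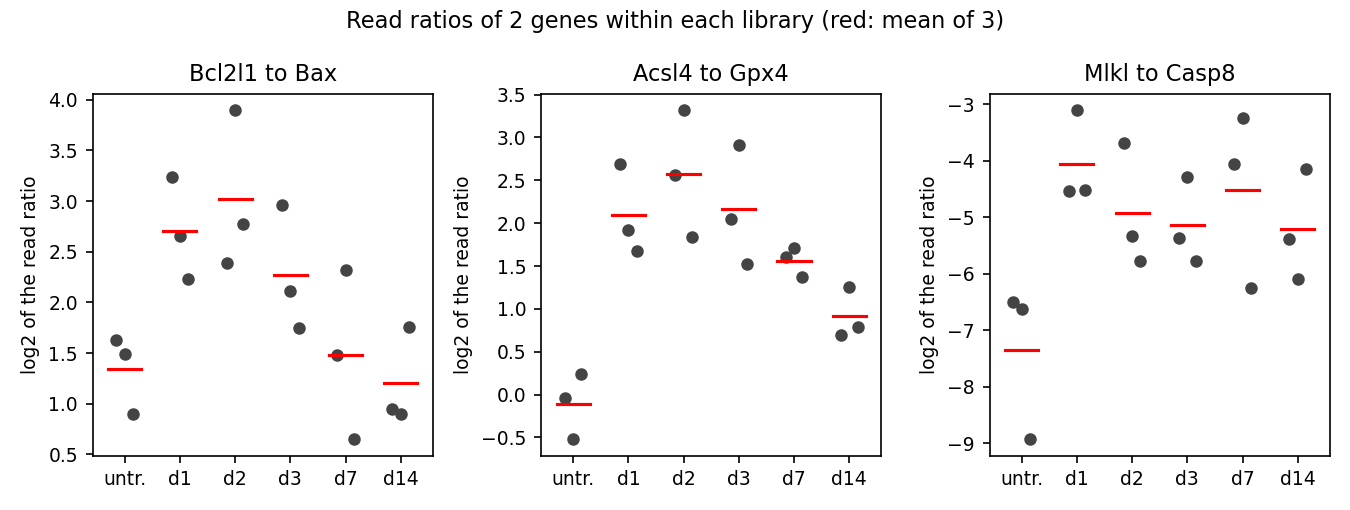
Log2 ratio of the reads of 2 genes in the same library (y axis) for Bcl2l1 to Bax, Acsl4 to Gpx4 and Mlkl to Casp8, in the 3 libraries of each group (points, with the mean in red) over untreated kidney and days 1, 2, 3, 7 and 14 (x axis). Acsl4 to Gpx4 goes from a mean of -0.11 in untreated kidney to 2.58 at day 2 and 0.92 at day 14.

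As a description over the 18 libraries, which share 3 libraries a group and so mostly trace the time course, the log2 level of Acsl4 followed that of Bcl2l1 (Pearson r = 0.65), Ripk3 (0.63) and Mlkl (0.60). Casp8 and Ripk1 followed each other at 0.68, and Ripk3 and Mlkl at 0.27. Among all tested genes with a mean of at least 10 CPM, those most like Acsl4 were Eif6 (0.96), Set (0.93) and Anxa4 (0.92). The most like Bcl2l1 were Ybx3 (0.91), Ddx21 (0.89) and Egfr (0.88), and the most like Ripk3 was Top2a (0.89). The closest genes to Mlkl, Casp8, Gsdmd, Gpx4, Bax and Ripk1 reached 0.84 (Traf7), 0.82 (Lad1), 0.83 (Ehf), 0.85 (Usp10), 0.83 (Zc3h15) and 0.77 (Zdhhc9).

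The other genes of apoptosis moved unevenly. For this and the following lists, 5.09%, 7.19%, 4.18% and 3.87% of all tested genes were called higher at days 1, 2, 3 and 7. In either direction it was 10.7%, 13.2%, 7.61% and 7.72%, and 1.55% at day 14. No list was tested against these shares. Of 9 tested pro-apoptotic BCL-2 genes, 2 were called higher on each of days 1, 2, 3 and 7, Bak1 and Pmaip1, and 1 was called lower at day 7, Bid. Pmaip1, which encodes the BH3-only protein NOXA, rose 6.91-fold at day 1 (from 2.48 ± 1.01 to 17.3 ± 13.8 CPM, adjusted p = 0.00414). Bak1, the partner pore former of Bax, rose 5.31-fold at day 2 (from 2.18 ± 0.285 to 11.7 ± 6.72 CPM, adjusted p = 0.00346). Bak1 and Pmaip1 kept their calls on those days under every alternative, but the sizes leaned on single libraries. Bak1 held 7.11, 19.4 and 8.61 CPM at day 2, the highest in the shallow replicate 2, and Pmaip1 8.05, 10.7 and 33.2 CPM at day 1. On leaving out a library the log2 fold change went down to 1.84 from 2.41 for Bak1 and to 1.91 from 2.79 for Pmaip1. Bid, the link from caspase 8 to mitochondria, fell 2.95-fold at day 7 (adjusted p = 0.0413), a call lost without untreated replicate 1 (0.185) or 2 (0.0664), without day 7 replicate 1 (0.156), 2 (0.133) or 3 (0.0502), and with library totals alone (0.212). The list's median log2 fold change was 0.01, -0.01, 0.41, 0.78 and 0.37 at days 1, 2, 3, 7 and 14.

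Of 4 tested anti-apoptotic BCL-2 genes, Bcl2l1 and Mcl1 were called at day 1 and Bcl2l1 at day 2. Mcl1, named after its values were seen, rose 2.51-fold at day 1 (adjusted p = 0.0233), a call lost without untreated replicate 1 (0.0938), untreated replicate 3 (0.0947) or day 1 replicate 2 (0.0905). Of the genes of the apoptosome, Cycs was called lower at days 3 and 7. Cytochrome c (Cycs) fell 2.93-fold at day 3, from 143 ± 26.5 to 48.7 ± 6.62 CPM (adjusted p = 0.00373). With library totals alone its adjusted p was 0.0524. Among 8 inhibitors of apoptosis, Birc3 was called at days 1, 2, 3 and 7 and Birc2 at days 3 and 7. Birc3, the ubiquitin ligase cIAP2, rose 11.5-fold at day 7 (adjusted p = 0.000268) and Birc2, or cIAP1, 4.32-fold (adjusted p = 0.00268). The median log2 fold change of this list was 1.54 at day 7, where that of all tested genes was 0.064.

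Death receptors and their adaptors, which deliver signals to Ripk1 and Casp8, gave 3 higher and 1 lower call of 21 at days 1 and 2, 4 higher at day 3 and 2 higher at day 7. The TNF receptors Tnfrsf1a and Tnfrsf1b, the TWEAK receptor Tnfrsf12a and the brake Tnfaip3 (A20) made up the higher calls. Tnfrsf12a rose 6.80-fold at day 1 (adjusted p = 0.00386), Tnfrsf1b by a log2 fold change of 3.32 at day 3 (adjusted p = 0.00824) and Tnfaip3 by 3.17 at day 7 (adjusted p = 0.00133). Tnfrsf1a, named after its values were seen, rose 3.37-fold at day 2 (adjusted p = 0.00525). Tnfsf10, the ligand TRAIL, fell 5.38-fold at day 2, from 39.6 ± 3.33 to 7.66 ± 6.27 CPM (adjusted p = 0.00159). These 5 values were called without each library in turn. Without day 2 replicate 2, 5 genes of this list were called at day 2. Tnfrsf1b and Tnfaip3 are also carried by leukocytes, whose 5 common markers summed to 5.49 to 10.3 CPM in untreated kidney, 25.3 to 58.3 CPM at day 3 and 38.0 to 61.2 CPM at day 7. Their part in these values was not tested.

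Of 16 necroptosis genes, Ripk3, Mlkl and Hsp90aa1 were called higher at day 1, Ripk3 and Trim28 at day 2, and Ripk3 alone at days 3 and 7, with Hsp90aa1 lower at day 7. Hsp90aa1, the chaperone that stabilizes RIP kinases among many clients, rose 1.77-fold at day 1 (239 ± 20.8 to 423 ± 11.9 CPM, adjusted p = 0.00869). It fell 1.73-fold at day 7 (adjusted p = 0.0156), which was lost with library totals alone (0.717) and without untreated replicate 1 (0.0641), untreated replicate 2 (0.0523) or day 7 replicate 2 (0.0755). Trim28, a chromatin repressor, rose 3.06-fold at day 2 (adjusted p = 0.0100), and without untreated replicate 3 its adjusted p was 0.0544. The list's median log2 fold change was 0.15 at day 1 and -0.31 at day 7, and with library totals alone it was 0.31 and 0.37. Cflar, the caspase 8 regulator c-FLIP, was 67.0 ± 9.65 CPM in untreated kidney and 67.5 ± 3.49 at day 1 (adjusted p = 0.986).

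Of 14 tested pyroptosis genes, 1 was called higher at day 1 (Nlrp3), none at day 2, 1 at day 3 (Gbp2) and 2 at day 7 (Il1b and Gbp2). Of all tested genes, 5.09%, 7.19%, 4.18% and 3.87% were called higher on these days, and 1 call among 14 genes is close to such shares. Gbp2, an interferon-induced GTPase, rose 7.75-fold at day 3 (adjusted p = 0.00855), a call lost without untreated replicate 2 (0.0522) or day 3 replicate 1 (0.0587). Nlrp3, the inflammasome sensor, and Il1b, the cytokine that inflammasomes mature, were named after their values were seen. Nlrp3 had no untreated read and 40 reads over the day 1 libraries, at 0.262, 0.0225 and 0.656 CPM (adjusted p = 0.0437). Their mean was 7.99 times a floor of 3 reads over the untreated group (0.0393 CPM). Day 1 replicate 2 lay below that floor. Nlrp3 passed the low-count filter only through treated libraries, and 13 alternatives gave it a value at day 1, against 15 for Il1b at day 7. Il1b rose 15.4-fold at day 7, from 0.138 ± 0.0739 to 2.08 ± 1.49 CPM (adjusted p = 0.0290). The Il1b call was lost without any 1 untreated library (0.0674, 0.128 and 0.0901 for replicates 1, 2 and 3), or day 7 replicate 1 (0.0580) or 2 (0.106). It was lost too under limma-voom (0.0799) and under the replicate block (0.0532). The Nlrp3 call was lost without any 1 untreated library (0.113, 0.157 and 0.105), or day 1 replicate 1 (0.0777) or 3 (0.151), and also under limma-voom (0.225) and the replicate block (0.0560). The list's median log2 fold change was 1.17 at day 7 and 1.26 at day 14, while the macrophage marker sum was 212 to 350 and 163 to 353 CPM, and the part of these cells was not tested.

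**Figure D4:**
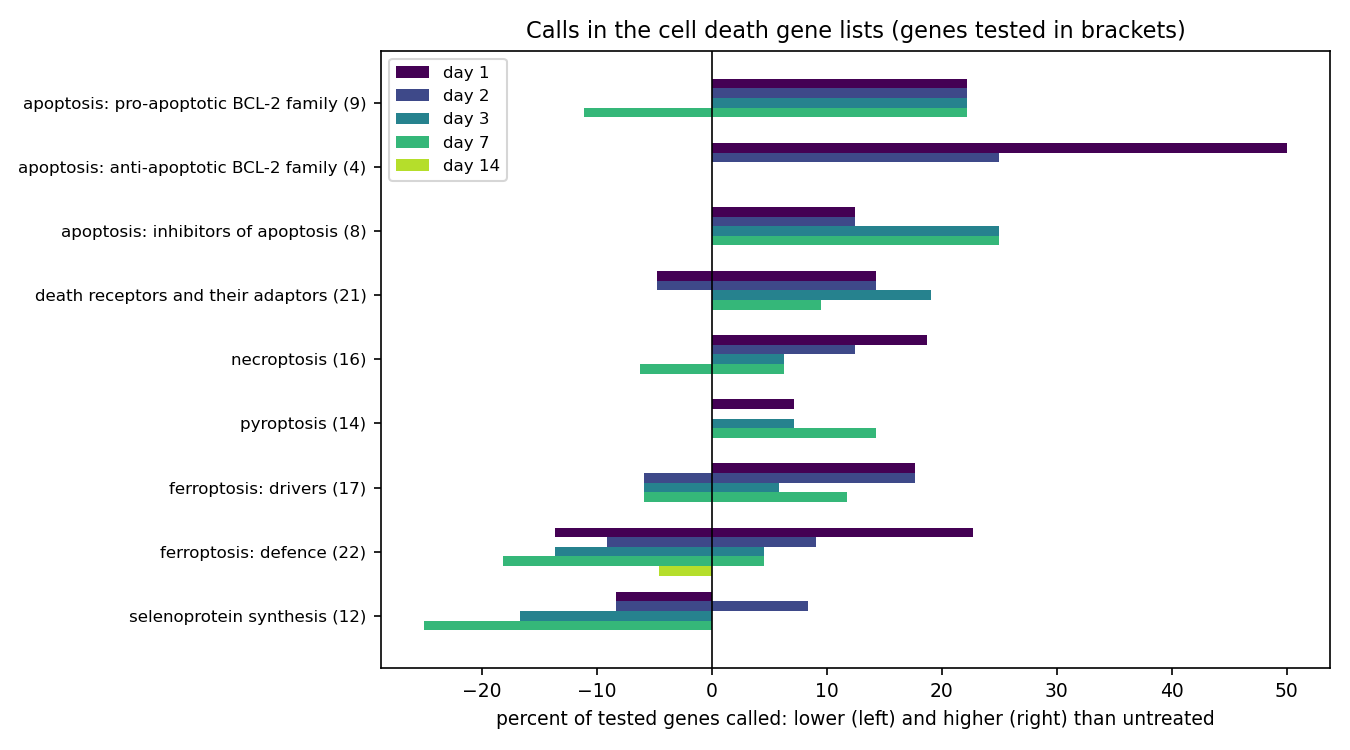
Percent of the tested genes in 9 cell death lists (y axis, number tested in brackets) called lower (bars to the left) or higher (bars to the right) than untreated kidney at an adjusted p under 0.05 (x axis), with 1 bar per day and TMM scaling. Ferroptosis defence has bars on both sides, with 5 of 22 genes higher at day 1 and 4 lower at day 7, a split that differs with library totals alone.

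Ferroptosis drivers besides Acsl4 were called in both directions. Of 17 tested, 3 were higher at day 1 (Acsl4, Hmox1 and Sat1), the same 3 at day 2 with Alox12 lower, Acsl4 at day 3 with Tfrc lower, and Acsl4 and Cybb at day 7 with Tfrc lower. Hmox1, the heme oxygenase that releases iron, rose 7.22-fold at day 1 (6.78 ± 2.38 to 48.9 ± 12.7 CPM, adjusted p = 0.000938). Sat1, a polyamine acetyltransferase named after its values were seen, rose 2.75-fold at day 2 (adjusted p = 0.00183). The transferrin receptor Tfrc fell 3.57-fold at day 7 (adjusted p = 0.00913), lost without day 7 replicate 1 (0.0609) and with library totals alone (0.0547). Cybb, the phagocyte oxidase subunit, rose 6.61-fold at day 7 (adjusted p = 0.0243), lost without untreated replicate 1 (0.110) or 3 (0.10) or day 7 replicate 1 (0.0607) or 2 (0.0563). The lipoxygenase Alox12, also named after its values were seen, fell 3.90-fold at day 2 (adjusted p = 0.0133), lost without untreated replicate 3 (0.0525). This call was lost too with no low-count filter (0.0615) and with only the groups compared (0.0635).

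Genes that protect against ferroptosis gave calls in both directions, and the balance depended on the scaling. Of 22, 5 were higher and 3 lower at day 1, 2 and 2 at day 2, 1 and 3 at day 3, 1 and 4 at day 7, and 0 and 1 at day 14. The median log2 fold change went from 0.60 at day 1 to -0.43 at day 3 and -0.53 at day 7. With library totals alone the medians were 0.73, 0.13 and 0.15, with 6 higher and 2 lower calls at day 1, 3 and 0 at day 3, and 3 and 1 at day 7. Fth1, the heavy chain of the iron store ferritin, rose 2.42-fold at day 1 (1220 ± 351 to 2950 ± 774 CPM, adjusted p = 0.00545) and fell 2.90-fold at day 7 (to 421 ± 46.1 CPM, adjusted p = 0.00238), both kept under every alternative. The light chain Ftl1, named after its values were seen, rose 2.33-fold at day 1 (adjusted p = 0.00175) and was among the lower calls of day 7. Gclc, the rate-limiting enzyme of glutathione synthesis, rose 2.64-fold at day 1 (adjusted p = 0.00168), whereas Gss, the next enzyme, fell 2.68-fold at day 2 (50.1 ± 2.67 to 18.7 ± 1.22 CPM, adjusted p = 0.000851). Hspb1 rose 8.18-fold at day 3 (adjusted p = 0.00251) and the desaturase Scd1 fell 3.61-fold at day 2 (adjusted p = 0.00288).

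The other calls in that list were of genes named after their values were seen. The iron exporter Slc40a1 rose 1.96-fold at day 2 (adjusted p = 0.0324), the mitochondrial proteins Cisd1 and Nfs1 fell 2.36-fold at day 1 (adjusted p = 0.0218) and 2.13-fold at day 7 (adjusted p = 0.0469), and glutathione reductase Gsr fell 2.01-fold at day 14 (adjusted p = 0.0483). Each was lost on leaving out single libraries. For Slc40a1 these were untreated replicates 1 (0.126) and 2 (0.144) and day 2 replicates 1 (0.0875), 2 (0.0620) and 3 (0.0521). For Cisd1 these were untreated replicate 3 (0.0828) and day 1 replicates 1 (0.0603) and 2 (0.0998). For Nfs1 these were untreated replicates 1 (0.124) and 2 (0.197) and day 7 replicates 1 (0.0859), 2 (0.162) and 3 (0.116), and with library totals alone the log2 fold change of Nfs1 was -0.44 (adjusted p = 0.434). The Gsr call was lost without any 1 of its 6 libraries, with adjusted p of 0.0510 to 0.213, and with library totals alone (0.165). It was lost too with no low-count filter (0.0790), under limma-voom (0.0608), under the replicate block (0.0644) and with only the groups compared (0.135). With no low-count filter the calls of Slc40a1 (0.0842) and Nfs1 (0.0633) were lost as well, and with only the groups compared that of Slc40a1 (0.114). Slc7a11, the cystine importer upstream of Gpx4, ranged only from 5.03 to 7.23 CPM over the 18 libraries (adjusted p across groups = 0.811).

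Gpx4 needs selenocysteine, and among 12 genes of selenoprotein synthesis and other selenoproteins 1 was called lower at day 1, 2 at day 3 and 3 at day 7, with 1 higher and 1 lower at day 2. With library totals alone the numbers of lower calls at days 1, 2, 3 and 7 were 1, 0, 0 and 0, and those of higher calls 0, 1, 0 and 1. Selenop, the selenium carrier, fell 2.47-fold at day 7, from 1980 ± 130 to 802 ± 77.1 CPM (adjusted p = 0.00223). Gpx3, the plasma glutathione peroxidase made by the proximal tubule, fell 2.23-fold at day 7 (5510 ± 451 to 2470 ± 701 CPM, adjusted p = 0.00754). With library totals alone their adjusted p were 0.0869 and 0.0943. Gpx1 fell 2.36-fold at day 1 (adjusted p = 0.0141), lost without untreated replicate 3 (0.0715) or day 1 replicate 2 (0.0629). Txnrd1, thioredoxin reductase, rose 1.96-fold at day 2 (adjusted p = 0.0495), lost without untreated replicate 1 (0.157), 2 (0.0505) or 3 (0.190) or day 2 replicate 1 (0.335). It was lost too under RLE scaling (0.0508), with no low-count filter (0.0839), under limma-voom (0.0639), under the replicate block (0.0688) and with only the groups compared (0.178). Proximal tubule markers fell over the same days, with 11 of 11 called lower at days 2 and 7, and their part in the falls of Gpx3 and Selenop was not tested.

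Between consecutive times no member was called, by edgeR, from day 1 to 2, day 2 to 3, day 3 to 7 or day 7 to 14. All tested genes gave 0.0594%, 0.25%, 0.0178% and 0.0178% of calls in these 4 comparisons, so few genes of any kind were called there. At an unadjusted p under 0.05, 0, 1, 1 and 2 of the 9 were found, where 2252, 2600, 1698 and 1588 of all 16824 tested genes were. The lowest adjusted p of a member was 0.46, 0.247, 0.286 and 0.441. The number of members whose libraries did not overlap those of untreated kidney was 4, 4, 3, 2 and 3 at days 1, 2, 3, 7 and 14, where 31.1%, 28%, 28.4%, 28.5% and 21.9% of all tested genes did not overlap.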

How the data were processed

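Total RNA from frozen kidney, 10 ng per sample, was made into libraries with NuGEN SPIA reagents, per the labels. Per the submitters' processing notes, the authors used cutadapt, TopHat2 2.07, HTSeq, DESeq and build NCBIM37; the role of each and whether counting used strand are not given in the sources used here. The deposited tables hold raw counts of reads per gene for 37991 identifiers and 5 tally rows, which were left out; reads assigned to no gene were 13.8 to 23.6%. The authors' normalized tables were not used. Symbols came from GENCODE M21 for 32919 identifiers, and promoters from RefSeq.

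A single edgeR 4.0.16 model of all 18 libraries, with group as its term, was used (TMM, filterByExpr, quasi-likelihood F test). Gene p-values are two-sided, from edgeR and Benjamini-Hochberg adjusted over 16824 genes. Folds are fitted, with SE; a number in parentheses after a left-out library is its adjusted p. Members and lists were chosen with earlier results of these data known. Genes named from a list were its 3 largest rises and 3 largest falls among genes called on that day and across the 6 groups, with at least 2 CPM in the higher group; others are said to be named after their values were seen. Alternatives were RLE scaling, library totals alone, no mitochondrial genes, 2 other low-count filters, DESeq2 1.42.0, limma-voom (limma 3.58.1), a replicate-number block, only the groups compared, and leaving out each library. The test was tried on counts simulated for day 1 against untreated, with 50 genes of at least 2 CPM changed at each size. It called 0 of 50 at 1.5-fold, 2 at 2-fold, 25 at 4-fold and 49 at 8-fold, with 1 false call. Changes of 2-fold or less were thus rarely called in the simulation, and a gene not called may still have changed. The simulation changed fewer genes than the 1792 called at day 1, and none with a mean under 2 CPM, such as Ripk3, Mlkl and Gsdmd. Its rates may therefore not hold for these data. R 4.3.3 and Python 3.11.15 were used with pandas 2.3.3 and matplotlib 3.10.9. Depth was 8.68 to 54.6 M reads in genes, so genes with few reads carry wide errors. No library was a copy of another. Some genes of 1 list, and that list's counts, are not reported here.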

Additional observations from a re-analysis of the deposited data

How the results depend on the processing

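Of 81 values of the 9 genes in the 9 comparisons, 11 were called, and 4 of these were called under every alternative that gave a value: Acsl4 at days 1, 2 and 3 and Ripk3 at day 2. With only the groups compared, Ripk3 did not pass the low-count filter against untreated kidney at days 1, 2, 7 and 14 and had no value there, nor did Mlkl at day 14. None of the 70 others was called under any alternative and no called value of the 9 changed sign. The number of members called at day 1 was 2 with only the groups compared (8 tested, Mlkl lost at 0.0657), against 4, and 1 to 4 on leaving out a library, with 1 without untreated replicate 2, untreated replicate 3 or day 1 replicate 1. At day 2 it was 1 with only the groups compared (8 tested, Bcl2l1 lost at 0.0947), against 3. At day 3 it was 1 to 2 on leaving out a library, with 1 without untreated replicate 2. At day 7 it was 1 under limma-voom, under the replicate block and with only the groups compared (where no tested member lost its call), against 2, and 0 to 2 on leaving out a library. Apart from the untested Ripk3 and the smaller number of samples in those fits, the cause was not tested. The replicate numbers did not pair the libraries (45 pairs with the same number, r from -0.054 to 0.042, and 6 of 18 libraries closest to their own number), and under the block the adjusted p of Ripk3 was 0.067 at day 1 and 0.0505 at day 7. Of 38 values of named list genes, 19 were called under every alternative and none changed sign. Scaling by library totals alone moved the median log2 fold change of all genes by 0.143, 0.254, 0.577, 0.673 and 0.317 at days 1, 2, 3, 7 and 14 and changed no call of the 9. Higher against lower calls then numbered 885 and 672 at day 1, 1450 and 651 at day 2, 2042 and 196 at day 3, 2390 and 175 at day 7, and 417 and 18 at day 14. They had been 857 and 935, 1210 and 1006, 703 and 577, 651 and 647, and 208 and 52.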

Other observations

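Fadd, the adaptor that joins death receptors to caspase 8, had its highest level at the last time point, when none of the 9 genes was called. It held 8.24, 15.9 and 31.4 CPM in the day 14 libraries, all above the range of the 15 earlier libraries (1.89 to 7.77 CPM). The adjusted p across the 6 groups was 0.00478. Day 14 against day 7 gave a log2 difference of 2.65 ± 0.49 SE with an adjusted p of 0.0849, and day 14 against untreated kidney 1.81 ± 0.48 with an adjusted p of 0.0614, so neither was called. Fadd was picked after its values were seen.

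Several scarce cell death genes were high in 1 library of a group only, and not in the same library. Bax stood at 17.0 CPM in day 7 replicate 3 and at 4.80 and 2.78 CPM in the others. Zbp1, a nucleic acid sensor upstream of Ripk3, stood at 9.36 CPM in day 3 replicate 2 against 1.23 and 0.262 CPM, and Naip6, a sensor of bacterial protein, at 28.8 CPM in day 1 replicate 1 against 0 and 0.219 CPM. These genes were picked after their values were seen, and the reason for the single high libraries was not tested.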
